A study of Mus musculus with 32 samples.

Results

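Mki67, Top2a, Ube2c, Plk1, Aurka, Aurkb, Bub1, Cdc20, Kif11 and Mad2l1 are genes of the dividing cell. They were followed here in the mouse cell line UB/OC-1 as it was moved from growth to differentiation. Of these 10 genes 7 had a probe set, and 6 had one bright enough to be tested for change, all but Bub1. Members were all probe sets whose only gene symbol in the platform annotation was one of the 10. They made up 10 probe sets of 7 genes, out of 7542 probe sets of 6137 genes that carry a single symbol. No probe set carried Cdc20, Kif11 or Mad2l1 as its only symbol, and probe sets with several symbols were not used as members. UB/OC-1 is a conditionally immortal line that was derived from the embryonic organ of Corti, the hearing epithelium of the inner ear. It carries a temperature-sensitive form of the SV40 large T antigen, an oncoprotein that drives division and that is active at 33 °C and unstable at 39 °C. Day 0 cultures were grown at 33 °C and are undifferentiated by their labels. All later cultures were kept at 39 °C for the stated number of days, the condition the labels call differentiating. The change of temperature, the loss of T antigen and the passage of time away from day 0 therefore cannot be told apart in any comparison with day 0. All cultures shared the line, so each group is a model of 1 immortalised line and not of cochlear tissue.

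Total RNA of 16 cultures was hybridised to 2 oligonucleotide array designs, a and b, 1 array of each per culture. Experiment A had 12 cultures (days 0 to 9, 11 and 14) and experiment B, a repeat, had 4 (days 0, 2, 4 and 9). Day 0 had 2 cultures. The later ones were grouped by day into an early phase of 4 cultures (days 1 to 3), a middle phase of 5 (days 4 to 7) and a late phase of 5 (days 8 to 14). Each phase had 1 culture of experiment B, and nothing in the labels says how far cultures of 1 experiment were grown apart, so the spread behind the p-values is that between these cultures and may be technical. A phase pools different days, so this spread also holds any change with day within the phase. Values are linear array intensities. An intensity above a floor of 141 on design a or 198 on design b was counted as measured. The share of probe sets above it was 44.2% to 50.8% per array for design a, and for design b 30.8% to 40.4%. The number of arrays limits the precision.

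The 10 genes act at successive steps of cell division. Mki67 encodes the Ki-67 protein, which coats mitotic chromosomes and is the usual marker of cycling cells, and Top2a encodes the topoisomerase that disentangles sister chromatids. Plk1, Aurka and Aurkb are kinases that drive entry into mitosis, spindle building and chromosome attachment, and Kif11 is the motor that pushes the spindle poles apart. Bub1 and Mad2l1 belong to the checkpoint that holds chromosomes at metaphase, and Cdc20 and Ube2c are the activator and the ubiquitin-conjugating enzyme of the anaphase-promoting complex, which ends it. Their transcripts are made mainly in the G2 and M phases and fall when cells leave the cycle. In bulk RNA a lower level can mean fewer dividing cells or less RNA per dividing cell, and these cannot be told apart. In the inner ear, hair cells and most other cells of the organ of Corti have stopped dividing before birth.

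Many G2 and M genes carry short promoter elements called the cell cycle genes homology region, with the core TTTGAA, and the CCAAT box, which binds the factor NF-Y. The promoters of 5 members are shown so that these elements can be seen in genes whose levels are described below. They are printed 5′ to 3′ on the gene's strand, from 250 bases before to 50 bases after the start given by RefSeq on build GRCm38.p6. Capitals mark every match to CCAAT or its reverse ATTGG and to TTTGAA or its reverse TTCAAA, and matches may overlap. The stretches are chr2:164769679-164769978 on the plus strand for Ube2c, chr11:99024140-99024439 on the minus strand for Top2a, chr7:135716330-135716629 on the minus strand for Mki67, chr2:172370521-172370820 on the minus strand for Aurka and chr7:122159185-122159484 on the plus strand for Plk1.
Ube2c: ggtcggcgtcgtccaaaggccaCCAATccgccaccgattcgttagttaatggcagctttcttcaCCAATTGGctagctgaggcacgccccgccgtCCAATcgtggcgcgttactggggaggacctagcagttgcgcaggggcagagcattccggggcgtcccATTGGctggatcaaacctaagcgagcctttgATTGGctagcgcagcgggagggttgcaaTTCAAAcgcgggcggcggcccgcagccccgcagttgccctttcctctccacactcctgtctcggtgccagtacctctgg
Top2a: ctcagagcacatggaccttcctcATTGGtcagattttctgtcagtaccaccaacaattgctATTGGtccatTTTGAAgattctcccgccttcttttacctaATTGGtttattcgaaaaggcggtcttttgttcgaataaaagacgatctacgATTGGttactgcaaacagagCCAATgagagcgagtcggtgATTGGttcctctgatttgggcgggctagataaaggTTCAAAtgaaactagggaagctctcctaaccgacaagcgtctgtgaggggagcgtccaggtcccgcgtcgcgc
Mki67: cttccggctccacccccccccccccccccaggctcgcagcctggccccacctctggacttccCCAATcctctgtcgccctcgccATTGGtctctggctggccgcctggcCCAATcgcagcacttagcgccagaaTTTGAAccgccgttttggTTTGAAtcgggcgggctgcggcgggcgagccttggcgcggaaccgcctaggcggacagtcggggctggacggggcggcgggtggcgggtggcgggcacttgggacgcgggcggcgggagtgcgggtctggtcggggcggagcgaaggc
Aurka: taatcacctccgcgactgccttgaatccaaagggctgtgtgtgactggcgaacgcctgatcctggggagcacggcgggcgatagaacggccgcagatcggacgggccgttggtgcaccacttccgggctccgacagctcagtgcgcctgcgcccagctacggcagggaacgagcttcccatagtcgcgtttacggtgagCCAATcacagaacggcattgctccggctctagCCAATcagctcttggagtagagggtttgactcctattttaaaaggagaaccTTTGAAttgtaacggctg
Plk1: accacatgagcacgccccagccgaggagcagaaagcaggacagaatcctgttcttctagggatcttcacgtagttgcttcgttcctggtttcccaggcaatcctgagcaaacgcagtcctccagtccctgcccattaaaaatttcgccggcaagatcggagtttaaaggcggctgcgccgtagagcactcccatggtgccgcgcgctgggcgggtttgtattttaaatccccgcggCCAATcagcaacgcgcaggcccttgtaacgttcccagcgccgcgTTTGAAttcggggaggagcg

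Of the 10 genes, 9 had a promoter entry, all but Aurkb. A CCAAT match on either strand was found in 8 of the 9, against 37.4% of 32851 mouse promoters of the same length. A match to TTTGAA was found in 7 of 9, against 17.9% of all promoters, and the same 7 held both motifs, against 6.95%. The Ube2c and Top2a promoters each held 6 CCAAT matches, that of Mki67 held 3, that of Aurka 2 and that of Plk1 1. Bub1 had 2 CCAAT matches and no TTTGAA match, and Mad2l1 had neither. The E2F-type sequence TTTGGCGC was in none of the 9 windows and in 0.514% of all promoters, and a second such sequence, TTTCCCGC, was likewise in none of the 9 and in 1.07% of all. These counts describe letters in a window and not binding.

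All 8 tested member probe sets had a lower mean intensity in each of the early, middle and late phases than on day 0. Top2a was lower within the first 3 days at 39 °C. By the late phase Mki67, Top2a, Ube2c, Aurka on design a and Aurkb had all fallen, Ube2c about 4.07-fold. Plk1 and the second Aurka probe set pointed down but did not pass the test. With experiment as a block that Aurka probe set passed late. Among the 39 °C phases alone, Ube2c passed late against early and no member passed middle against early.

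**Figure D1:**
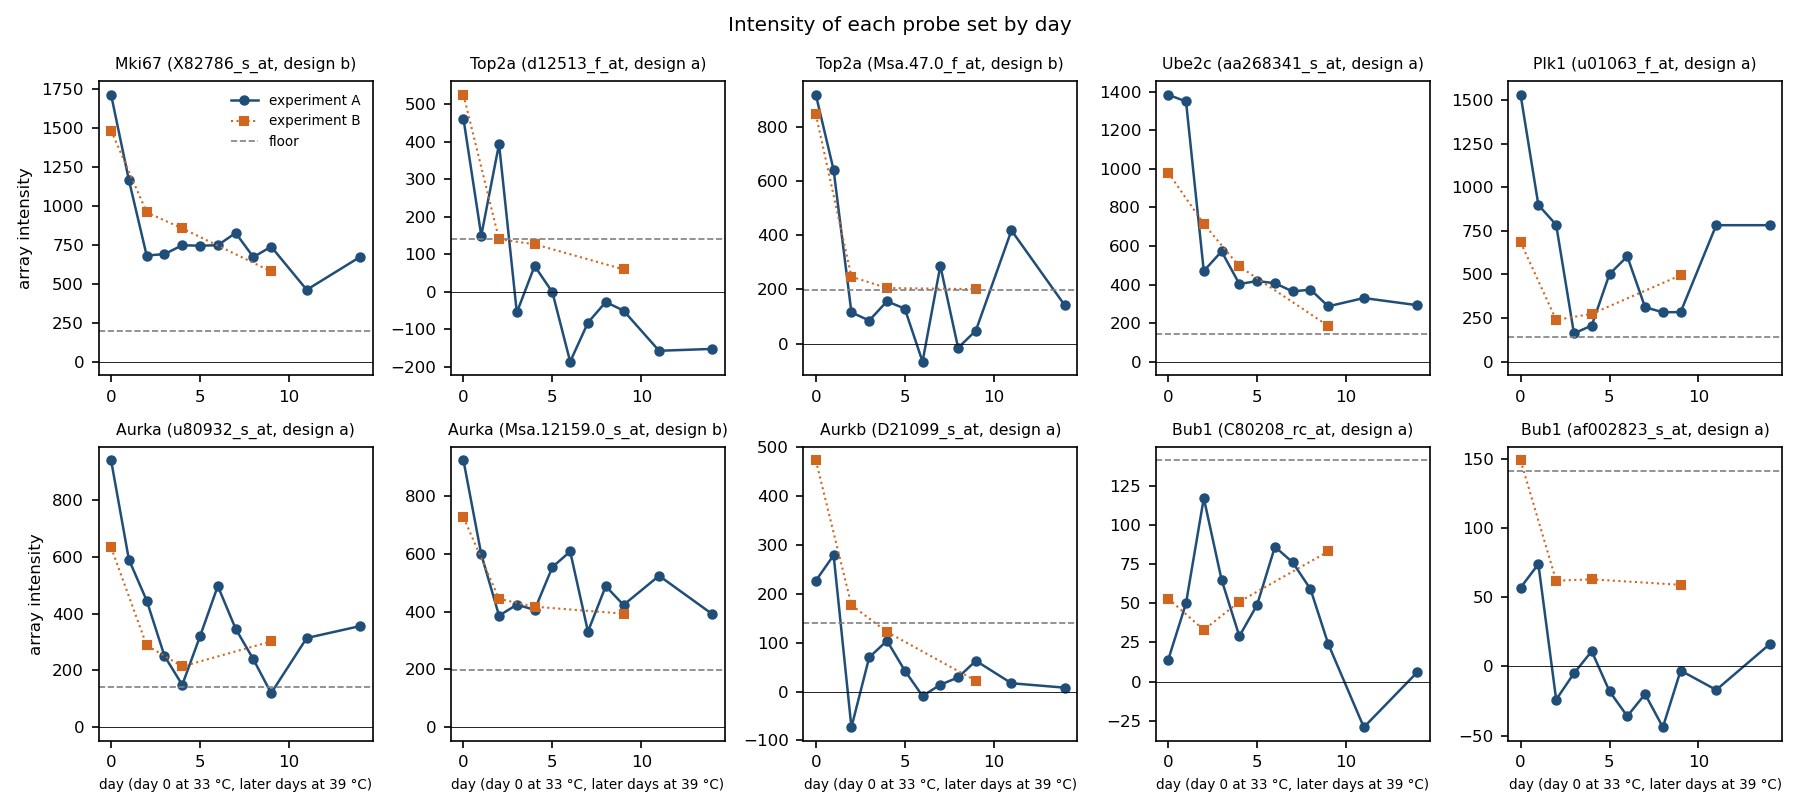
Linear array intensity (vertical axes, with their own scale in each panel) against day (horizontal axes) for the 10 member probe sets; circles joined by solid lines are the 12 cultures of experiment A, squares joined by dotted lines the 4 of experiment B, and the dashed line is the floor (141 on design a, 198 on design b). Mki67 drops from 1712 and 1483 on day 0 to between 461 and 738 late, while the Bub1 probe sets stay at or under the floor but for a single culture at 149.

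Mki67 had 1 probe set, X82786_s_at on design b, and was above the floor in all 16 cultures. On day 0 its intensity was 1712 in experiment A and 1483 in experiment B. Early it was 1165, 681 and 690 on days 1, 2 and 3 of experiment A and 958 on day 2 of experiment B. These early values all lay below day 0, with the highest of them on the first day. In the middle phase Mki67 was 747, 744, 747 and 826 on days 4 to 7 of experiment A and 855 on day 4 of experiment B. Late it was 671, 738, 461 and 672 on days 8, 9, 11 and 14 of experiment A and 579 on day 9 of experiment B. Neither phase overlapped day 0, and the middle values spanned a narrow range of 744 to 855.

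The difference from day 0 for Mki67 was −0.90 ± 0.31 early on the log2 scale (limma, here and throughout ± standard error, adjusted p = 0.151, not called). It was −1.03 ± 0.30 in the middle phase (adjusted p = 0.0426) and −1.37 ± 0.30 late, a 2.59-fold fall (adjusted p = 0.00558). The middle call was lost on leaving out the day 0 culture of either experiment or any of days 4 to 9 of experiment A, with adjusted p from 0.0533 to 0.214, and also with quantile normalization (0.0569), without the filter (0.104), with the Gapdh covariate described below (0.0772) and in experiment A alone (0.0953). The late call was lost only without day 0 of experiment A (−1.27, adjusted p = 0.0599).

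Top2a had a probe set on each design, d12513_f_at on a and Msa.47.0_f_at on b. Names ending in f_at mark probe sets shared by a gene family, so part of this signal may belong to a related gene. On design a the day 0 intensities of Top2a were 461 in experiment A and 525 in experiment B. Early they were 150, 394 and −55 on days 1 to 3 of experiment A and 140 on day 2 of experiment B. The value of day 2 of experiment A stood well above the other early cultures. In the middle and late phases none of the 10 cultures was above the floor, with intensities from −186 to 127 and from −157 to 60.

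On design b Top2a was 919 on day 0 of experiment A and 847 on day 0 of experiment B. Early it was 641, 115 and 85 on days 1 to 3 of experiment A and 247 on day 2 of experiment B. The first day at 39 °C thus held most of the day 0 signal on this design, where design a had 150 against 461. In the middle phase Top2a was 156, 129, −67 and 287 on days 4 to 7 of experiment A and 205 on day 4 of experiment B. Late it was −16, 48, 418 and 141 on days 8, 9, 11 and 14 of experiment A and 201 on day 9 of experiment B. Neither phase overlapped day 0, and day 11 of experiment A was the highest culture of both. Over the 16 cultures the probe sets of the 2 designs correlated with r = 0.643, a description over values that share cultures and the day 0 step.

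Top2a had fallen early by low estimates of 2.66-fold on design a (−1.41 ± 0.32, adjusted p = 0.0169) and 3.14-fold on design b (−1.65 ± 0.43, adjusted p = 0.0404). These folds are low estimates, since 2 of the 4 early cultures were at the floor on each design. They were the only member probe sets called early, 2 of 8, beside 2.06% of the 7728 probe sets tested that were called lower. The early call on design a was lost on leaving out day 3 of experiment A (adjusted p = 0.0611) or the day 0 culture of experiment B (0.117). On design b it was lost on leaving out any of days 0, 2 to 6, 8, 9 and 14 of experiment A or days 0 and 2 of experiment B, with adjusted p from 0.0518 to 0.176. In the middle phase Top2a was at least 3.49-fold lower than day 0 on design a (adjusted p = 0.000957), and on design b the low estimate was 4.11-fold (−2.04 ± 0.42, adjusted p = 0.00399). Late the values were at least 3.49-fold (adjusted p = 0.00087) and 3.83-fold (−1.94 ± 0.42, adjusted p = 0.00489). No single left-out culture ended a middle or late call of Top2a, while in experiment A alone, with 1 culture on day 0, the design b differences missed the threshold (adjusted p = 0.0835 and 0.091). Cultures set to the floor are tied, which can make these p-values too small.

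Ube2c had 1 probe set, aa268341_s_at on design a, above the floor in all 16 cultures. Its day 0 intensity was 1384 in experiment A and 981 in experiment B. Early it was 1350, 470 and 572 on days 1 to 3 of experiment A and 714 on day 2 of experiment B. In experiment A Ube2c was still at 97.5% of day 0 on day 1, and most of the drop lay between days 1 and 2. Experiment B had no day 1 culture. There Ube2c stood at 72.8% of day 0 on day 2, 50.4% on day 4 and 18.9% on day 9. In the middle phase it was 403, 418, 407 and 364 on days 4 to 7 of experiment A and 494 on day 4 of experiment B. Late it was 374, 287, 330 and 293 on days 8, 9, 11 and 14 of experiment A and 185 on day 9 of experiment B. The late cultures lay below all the early ones, and the middle phase overlapped both.

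Early, Ube2c differed from day 0 by −0.71 ± 0.39 (adjusted p = 0.508) and the groups overlapped through day 1. In the middle phase it had fallen 2.81-fold (−1.49 ± 0.38, adjusted p = 0.0172), a call that was lost on leaving out the day 0 culture of experiment A (adjusted p = 0.171) or that of experiment B (0.0576). Late it had fallen 4.07-fold (−2.03 ± 0.38, adjusted p = 0.00143), with no call lost under any left-out culture. Late against early, at constant 39 °C, Ube2c fell 2.49-fold (−1.32 ± 0.30, adjusted p = 0.0388). This was 1 of 8 member probe sets, beside 0.556% of all probe sets called lower. This call was lost on leaving out any of days 1, 4 to 7, 9, 11 and 14 of experiment A or days 2 and 9 of experiment B. The adjusted p then ran from 0.0508 to 0.198, the last without day 1 of experiment A (−1.01).

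Plk1 was read by u01063_f_at on design a, again a family-shared probe set, and was above the floor in every culture. Its day 0 intensities were far apart, 1529 in experiment A and 685 in experiment B. Early it was 898, 784 and 162 on days 1 to 3 of experiment A and 239 on day 2 of experiment B. In experiment A it thus held much of its level for 2 days and was lowest on day 3. In the middle phase Plk1 was 207, 502, 603 and 312 on days 4 to 7 of experiment A and 274 on day 4 of experiment B. Late it was 283, 284, 782 and 782 on days 8, 9, 11 and 14 of experiment A and 495 on day 9 of experiment B. The last 2 days lay above day 0 of experiment B, so the late phase overlapped day 0.

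No Plk1 comparison passed: the differences from day 0 were −1.33 ± 0.66 early (adjusted p = 0.414), −1.54 ± 0.63 in the middle phase (0.163) and −1.11 ± 0.63 late (0.328). Late against early Plk1 differed by 0.23 ± 0.51 (adjusted p = 0.941), the only member with a positive difference there, and this sign turned without day 3 of experiment A (−0.22) and without day 2 of experiment B (−0.03). Its profile over the 16 cultures correlated with the mean of the other members at r = 0.628, the lowest of the 8.

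Aurka had a probe set on each design, u80932_s_at on design a. On design a the day 0 intensities were 939 in experiment A and 633 in experiment B. Early they were 590, 446 and 251 on days 1 to 3 of experiment A and 288 on day 2 of experiment B. All early values lay below day 0, falling from day to day in experiment A. The middle phase held 149, 320, 497 and 347 on days 4 to 7 of experiment A and 214 on day 4 of experiment B. Late Aurka was 239, 120, 314 and 356 on days 8, 9, 11 and 14 of experiment A and 302 on day 9 of experiment B. Day 9 of experiment A was the only culture under the floor.

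On design b the day 0 intensities of Aurka were 923 and 726 in experiments A and B, and all 14 later cultures lay between 331 and 608, with no overlap. On day 2 Aurka stood at 386 and 444 in the 2 experiments. In experiment A it was higher on days 5 and 6, at 554 and 608, and then 331 on day 7. Late it lay between 391 and 524. The probe sets of the 2 designs correlated with r = 0.696 over the 16 cultures.

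Late against day 0 Aurka had fallen by a low estimate of 2.99-fold on design a (−1.58 ± 0.47, adjusted p = 0.0374) and differed by −0.89 ± 0.34 on design b (adjusted p = 0.107, and 0.0339 with experiment as a block). The design a call was lost without day 0 of experiment A (adjusted p = 0.226), day 0 of experiment B (0.106), day 8 (0.0628) or day 9 (0.0796) of experiment A, and also with a lower floor (0.0523) and without the filter (0.085). The middle phase differed from day 0 by −1.45 ± 0.47 on design a (adjusted p = 0.0671, 0.0351 with the block) and by −0.86 ± 0.34 for the other probe set (0.144, 0.0475 with the block). Without day 6 of experiment A, the middle difference on design a was −1.66 (adjusted p = 0.0394). Early they were −1.05 ± 0.49 (adjusted p = 0.359) and −0.84 ± 0.35 (0.267).

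Aurkb was measured by D21099_s_at on design a and was above the floor in 4 of 16 cultures. Its day 0 intensities were 227 in experiment A and 473 in experiment B. Early it was 279, −73 and 70 on days 1 to 3 of experiment A and 177 on day 2 of experiment B. Day 1 of experiment A was above its own day 0. In the middle and late phases none of the 10 cultures was above the floor, with intensities from −9 to 122 and from 8 to 63.

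Aurkb was at least 2.32-fold lower than day 0 in the middle phase (adjusted p = 0.00539) and late (adjusted p = 0.00451). Early the difference was −0.89 ± 0.27 and did not pass (adjusted p = 0.0831). Only day 0 and early cultures took Aurkb past the filter. The middle and late cultures were all set to the floor and so tied, which can make the p-values of these phases too small. With arcsinh in place of log2 values the middle call was lost (adjusted p = 0.0739). The bound rests on experiment B, and in experiment A alone the middle difference was −0.69. Without its day 0 the differences were −0.69 in both phases, with adjusted p of 0.176 and 0.155. With the day 0 or the day 1 culture of experiment A left out, the early difference passed (adjusted p = 0.00653 and 0.0071).

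Bub1 had af002823_s_at and C80208_rc_at on design a, neither of which entered the test. The first was above the floor in 1 culture, day 0 of experiment B at 149, with 57 on day 0 of experiment A and −44 to 74 in the 14 later cultures. The second never reached the floor and ranged from −29 to 117. A change in Bub1 could not be measured on these arrays.

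**Figure D2:**
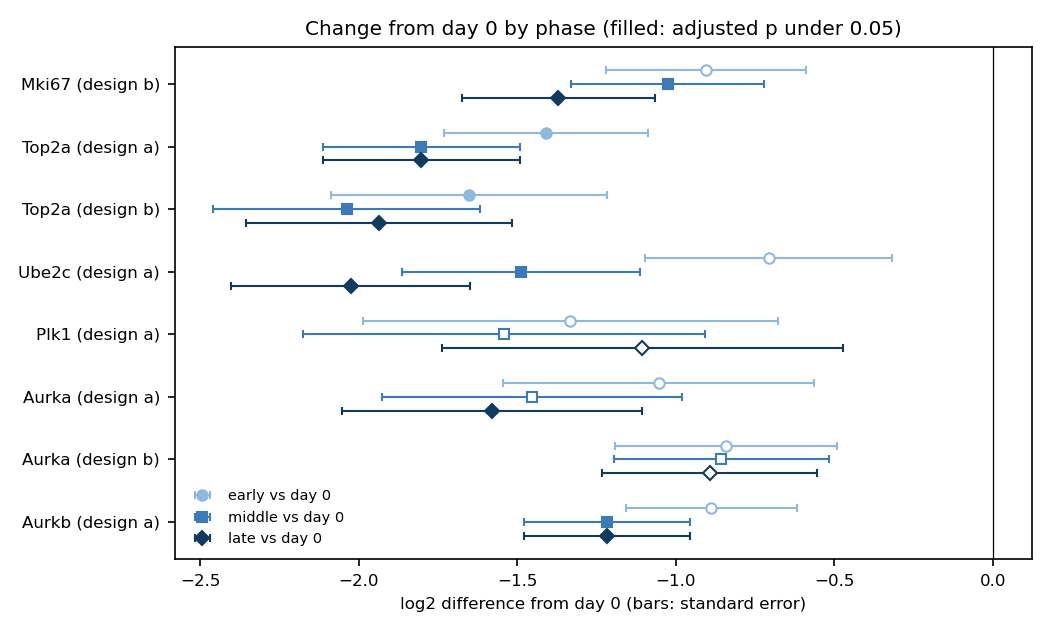
Log2 difference from day 0 (horizontal axis) for the 8 tested member probe sets (vertical axis), with the standard error as bars; circles, squares and diamonds are the early, middle and late phases, filled where adjusted p is under 0.05. All 24 points lie below 0, and 2 early, 5 middle and 6 late points are filled.

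In the counts by phase, 5 of 8 member probe sets had fallen in the middle phase, beside 4.58% of all probe sets called lower, and 6 of 8 late, beside 6.08%. Both counts include Aurkb and Top2a on design a, which passed the filter only through day 0 and early cultures and were at the floor afterwards. With experiment as a block 7 of 8 were called in each of these phases. The median log2 difference of the members was −0.98 early, −1.47 in the middle phase and −1.48 late, where the medians over all tested probe sets were 0.05, 0.08 and 0.11. These comparisons share the day 0 cultures. Middle against early, no member probe set passed, nor did any of the 7728 (0.0%). By limma's unadjusted p, 382 of 7728 probe sets and 1 member, Ube2c, were under 0.05. With experiment as a block limma called 3 probe sets and no member. In a spline over day, which needs no phases, 5 of 8 members changed, beside 9.76% of all. They were Ube2c (adjusted p = 0.000701), Top2a on design b (0.000983) and design a (0.00909), Aurkb (0.00217) and Mki67 (0.028). Plk1 (0.0746) and Aurka on design a (0.0672) did not pass, but did with the block (0.0338 and 0.0326), with the higher floor (0.0491 and 0.0116) and without day 6 of experiment A (0.0402 and 0.0225). Aurka also passed without day 9 of that experiment (0.0407), and on design b it was at 0.29. Aurkb was no longer called with the higher floor (0.211) or on arcsinh values (0.0615), nor Mki67 without the filter (0.0705). Without day 0 of experiment A or of experiment B, Mki67 (0.19 and 0.148) and Top2a on design a (0.069 and 0.0955) were no longer called, and Mki67 was at 0.0596 without day 1 of experiment A.

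At the 4 matched days the experiments could be set side by side. No member was called between experiments B and A (limma with day as a factor, 3 residual degrees of freedom). The differences ran from −0.42 to 0.35 on the log2 scale. By comparison 9.68% of all probe sets were called. At an unadjusted p under 0.05 there was 0 of 8 members, against 30.1% of all probe sets. The fit takes a single shift over the 4 days, so differences of opposite sign can cancel. Plk1 was 1529 in experiment A and 685 in experiment B on day 0, but 284 and 495 on day 9. With so few degrees of freedom, the lack of a call does not show that the experiments were alike. On day 9 Ube2c was at 20.7% of its own day 0 in experiment A and 18.9% in experiment B, and Mki67 at 43.1% and 39.0%. On day 2 they were further apart: Ube2c stood at 34.0% in experiment A and 72.8% in experiment B, and Mki67 at 39.8% and 64.6%. Plk1 was at 18.6% of its day 0 in experiment A and 72.3% in experiment B on day 9. A single culture stands behind each of these shares, so they have no error of their own.

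**Figure D3:**
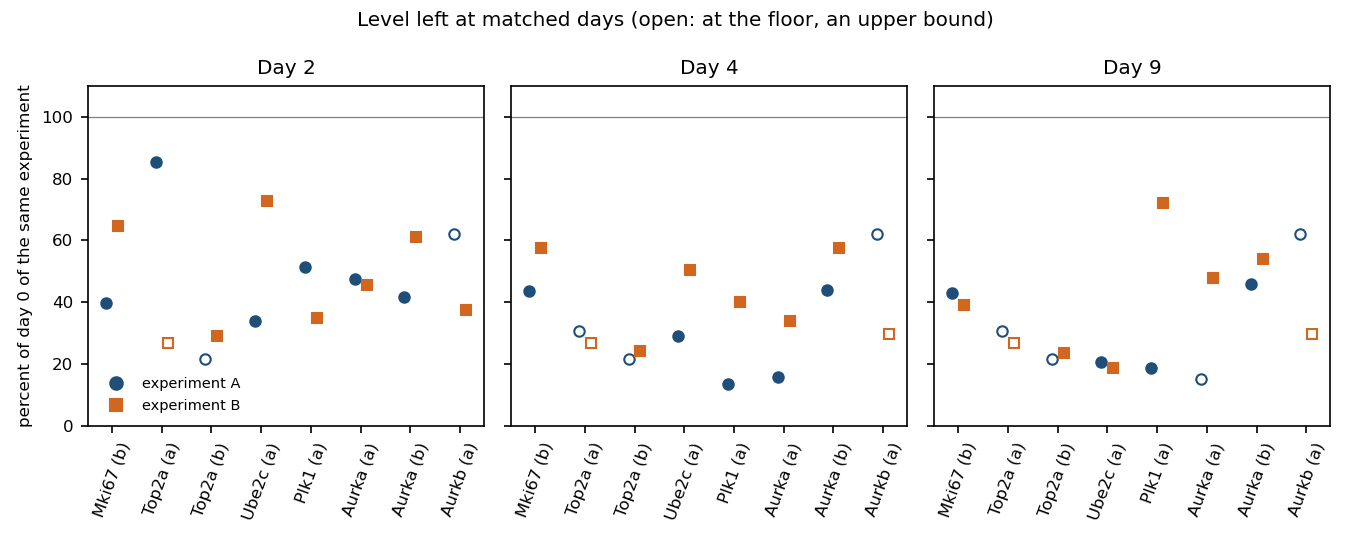
Intensity on days 2, 4 and 9 as a percentage of day 0 of the same experiment (vertical axis) for the 8 tested member probe sets, named with their array design (horizontal axis); circles are experiment A, squares experiment B, 1 culture each, and open symbols are at the floor and so upper bounds. Ube2c reaches 20.7% and 18.9% on day 9, whereas Plk1 is at 18.6% in experiment A and 72.3% in experiment B.

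The members were compared with each other as a description over 16 cultures that share the day 0 step. All 28 pairs of tested probe sets had a positive Pearson r, from 0.334 to 0.857 with a median of 0.659. Over the 14 cultures at 39 °C alone, r ran from −0.215 to 0.799 with a median of 0.376, and 23 of 28 pairs were above 0. Top2a on design b followed the mean of the other members most closely (r = 0.878).

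A list of 80 other mitosis genes gave 49 tested probe sets of 41 genes. Of these 49 tested, 3 had fallen early, 9 in the middle phase and 14 late, none had risen in any of the 3 phases, and none passed late against early. Of all 7728 tested probe sets 2.06%, 4.58% and 6.08% were called lower in these phases, and 0.556% late against early. With experiment as a block the counts were 6, 13 and 14. Without day 0 of experiment A they were 1, 4 and 9, and without day 0 of experiment B 1, 3 and 5. The early count was also 0 without day 2 or day 3, 1 without day 4 or day 5 and 6 without day 1 of experiment A, and the late count was 9 without day 8 or day 14. Late against early it was 1 without day 3 of experiment A. Without the filter the 3 counts were 0, 5 and 7, and in experiment A alone 2, 3 and 8. The early 3 were Cdk1, the kinase that starts mitosis (2.20-fold, adjusted p = 0.0289), Incenp, the scaffold of the Aurora B complex (2.59-fold, 0.0448) and Plk4, the kinase of centriole copying (a low estimate of 1.73-fold, 0.0344); they were named after their values were seen.

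The late calls are given by role. Among kinases and their partners 9 of 11 probe sets had fallen (median −1.27), and among spindle and division genes 5 of 16 (median −0.54). Of all tested probe sets 6.08% were called lower late. Each gene was filed under a single role. None of 5 probe sets filed as checkpoint or kinetochore, 10 as the anaphase-promoting complex or its targets, or 7 as chromosome structure passed. Their medians were −0.11, −0.29 and −0.28. Ttk, a checkpoint kinase, and Ccna2 and Ccnb2, cyclins that the complex targets, were filed with the kinases. These genes had fallen late (adjusted p = 0.045, 0.00756 and 0.000814), so the split by role does not show that checkpoint genes or targets kept their level. The largest falls were in Anln, the contractile ring scaffold anillin, at 6.94-fold on the family-shared probe set AA673431_rc_f_at (adjusted p = 0.00411) and by a low estimate of 5.52-fold on C78101_rc_at (0.000829). Cks1b, a partner subunit of cyclin-dependent kinases, fell by a low estimate of 5.46-fold (adjusted p = 0.0125), and Ccnb2, a mitotic cyclin, of 4.88-fold (0.000814). Cdca3, a mitotic entry factor, fell by a low estimate of 4.25-fold (0.00612) on a family-shared probe set, while its second probe set differed by −0.07 (adjusted p = 0.954). Prc1, which bundles the microtubules of the central spindle, fell by a low estimate of 2.96-fold (0.0494). In experiment A alone Cks1b and Prc1 were no longer called (adjusted p = 0.0901 and 0.0925).

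Replication genes act in S phase, before mitosis. Of 22 tested probe sets, 0 had fallen early, 2 in the middle phase and 4 late (median −0.75), and none had risen. The shares of all tested probe sets called lower in these phases were 2.06%, 4.58% and 6.08%. With experiment as a block the counts were 2, 4 and 6, and without day 0 of experiment B they were 0, 0 and 1. Leaving out day 1 in experiment A or day 2 in experiment B gave an early count of 1. The middle count was 1 without day 4, day 5 or day 7 of experiment A and 4 without day 4 of experiment B, and the late count was 7 without day 9 of experiment B. Pola2, a subunit of the primase-bearing DNA polymerase alpha, was at least 2.47-fold lower late (adjusted p = 0.00323). Mcm7, of the replicative helicase, had fallen 2.29-fold (0.00994) and Prim1, the primase itself, 2.24-fold (0.0416). In experiment A alone Mcm7 and Prim1 were no longer called (adjusted p = 0.0645 and 0.0936).

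**Figure D4:**
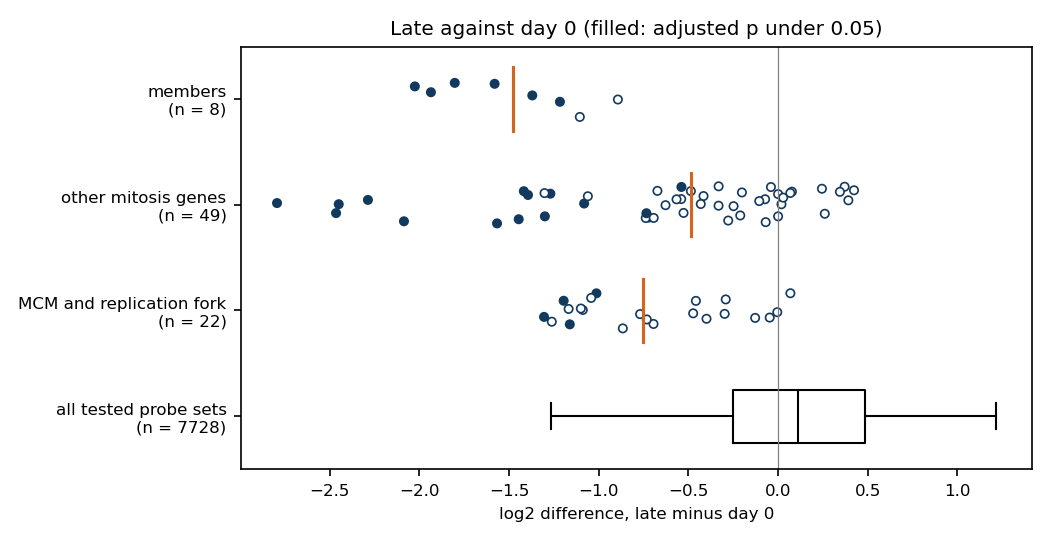
Log2 difference late minus day 0 (horizontal axis) for the 8 member probe sets, 49 of the other mitosis genes and 22 of replication genes, 1 point each, filled where adjusted p is under 0.05; orange bars are medians, and the box for all 7728 tested probe sets spans the 25th to 75th percentile with whiskers at the 5th and 95th. The list medians lie at −1.48, −0.49 and −0.75, and that of all probe sets at 0.11.

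The probe sets most like the members were ranked by Pearson r with the mean centred member profile over 16 cultures, among 4939 non-member probe sets with a single symbol. The first 10 were Hspa4 (r = 0.949), Hmga2 (0.946), Lrrc59 (0.918), Nop56 (0.916), H2az1 (0.915), Samhd1 (0.909), Mdh2 (0.907), Dok1 (0.906), Fbln2 (0.906) and Nme2 (0.904). None was on the mitosis or replication lists, and with day 0 left out their r ran from 0.672 for Nme2 to 0.899 for Hspa4. The ranking includes the step from day 0, so the late levels of these genes are given as a description. The mean intensity of Hspa4, a chaperone of the heat shock family, was 1091 on day 0 and 260 late. That of Hmga2, a chromatin protein of embryonic cells, was 1840 on day 0 and −16, under the floor, late, and that of Nop56, a protein of ribosome assembly, was 818 on day 0 and 62.2 late.

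Other measures also differed between the arrays. The noise level of an array, taken from its negative intensities as the floor was, lay on design b between 75 and 186 on day 0 and between 160 and 324 late, and on design a between 91 and 187 on day 0 and between 102 and 202 late. The lower day 0 value of each design was that of experiment B. With the noise level as a covariate 8 of 8 members were called in both the middle and late phases. The 3′ to 5′ signal ratio of the Gapdh control probe sets, a sign of RNA integrity, reached 2.65 (design a) and 2.56 (design b) in the middle phase, on day 6 of experiment A, against 0.759 to 1.67 in the other phases. The ratio was 0.759 to 0.889 on arrays of experiment B and 0.994 to 2.65 on those of experiment A. With the ratio as a covariate 5 of 8 members were called in the middle phase, where Mki67 was lost and Aurka on design a gained, and 7 of 8 late. Of 15 probe sets of 12 otic epithelium marker genes 3 were never above the floor (Cdh1, Epcam and Fgfr3), and their summed intensity went from 5409 to 7483 on day 0 to 2776 to 3802 late. Krt18 leads that sum (453 to 5437 over the cultures), while over the 12 tested probe sets of the list the median log2 difference late against day 0 was 0.05, with 1 called lower and 1 higher. Of 15 probe sets of 9 mesenchyme marker genes 7 were never above the floor (all those of Lum, Thy1 and Col1a2 among them), and their sum went from 1550 to 4710 on day 0 to 5897 to 24805 late, led by Dcn (61 to 22560). Over the 7 tested mesenchyme probe sets the median log2 difference late against day 0 was 0.48, with 1 called lower and 1 higher. For 7 blood cell marker probe sets, of which 2 were never above the floor (Csf1r and Adgre1), the sums were 1746 to 2928 and 2303 to 4533. For 6 neuron and glia marker probe sets, of which 1 was never above it (Nefm), they were 1390 to 2861 and 914 to 1198, led by Tubb3 (275 to 1954), and the median over the 4 tested was −0.0037 late with 1 called lower. Their part in the falls of the members was not tested.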

How the data were processed

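The authors deposited array intensities per probe set, linear whole numbers that can be negative. How they were background-corrected and scaled is not given in the sources used here. Without control probe sets the trimmed mean of each array (2% left out at each end) was 296 to 298 on design a and 293 to 296 on design b, so the values were used as deposited, and 0 columns of values were left unused. Symbols came from the platform annotation and promoter sequences from RefSeq.

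Per design, negative values were made positive and their 75th percentile (141 for a, 198 for b) was used as a floor: lower intensities were raised to it, and log2 was taken. Probe sets exceeding the floor on 2 or more of 16 arrays were tested, 7728 of 13069. A fold is a lower bound ("at least") where the dimmer group lay wholly at the floor, and a low estimate where part of it did. Models were fitted per design with limma 3.58.1 in R 4.3.3 (lmFit, eBayes with trend and robust, 12 residual degrees of freedom), two-sided, with Benjamini-Hochberg adjustment over both designs and a threshold of 0.05. Change with day was also tested by an F-test on a natural spline (3 degrees of freedom). The procedure was tested on simulated data with large changes in probe sets well above the floor. That test does not bear on smaller changes or on probe sets near the floor. Tables and figures used Python 3.11.15.

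The labels call experiment B a repeat of A. Differences B minus A correlated across probe sets between matched days (r from 0.274 to 0.726, 6 pairs of days per design), so experiment pairs the samples. The main fits by phase and by spline nevertheless had no term for experiment. The fit with experiment as a block was an alternative, and its counts are given beside the main ones. The members, lists, phases and tests were chosen with earlier results of these data known. Named genes were all members, up to 6 other mitosis and 3 replication probe sets with the largest called changes late against day 0 or late against early, and the 10 probe sets most like the members. Alternatives were the floor, the filter, quantile normalization, the arcsinh scale, plain eBayes, the block, experiment A alone, other phase limits and each culture left out. Noise and Gapdh covariates were added after seeing the data.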

Additional observations from a re-analysis of the deposited data

Results flagged for a closer look

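With intensities under the floor set to it, 1 culture lay far from the others in 3 of 24 groups of 4 or 5 cultures, by the gap to its nearest neighbour over the whole range, and all 3 were Top2a. Chance gives about 1 in 20 for untied values, a rate that need not hold where cultures are tied at the floor. On design a the early value of day 2 of experiment A was 394, with the other early cultures at 150 or less. On design b the middle value of day 7 of experiment A was 287, and the late value of day 11 of experiment A was 418. The other design was under its floor on days 7 and 11 of experiment A, with −82 and −157, and on day 2 design b read 115 where design a read 394. On the intensities as deposited none of the 3 stood apart: the gap was 0.543, 0.232 and 0.5 of the range, under the limits of Dixon's test.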

How the results depend on the processing

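Over the single members, 986 values under an alternative kept their direction and their side of the threshold, 74 lost the call, 34 gained it and 8 turned sign. The early count of 2 became 0 with early as days 1 and 2, with arcsinh values, with a lower floor and in experiment A alone, and 1 without the filter and with 8 arrays above the floor. The middle count of 5 became 3 with 8 arrays above the floor, 2 in experiment A alone and 8 with the noise covariate. The late count of 6 became 3 in experiment A alone. Late against early, the count of 1 became 0 without the filter and in experiment A alone. The time course count of 5 became 3 with 8 arrays above the floor and 3 in experiment A alone. With 1 culture left out the counts ran from 0 to 3 early, 2 to 5 in the middle phase, 4 to 6 late, 0 to 0 middle against early, 0 to 1 late against early, 3 to 7 in the time course and 0 to 0 for experiment B against A. With experiment as a replicate block they were 2 early, 7 in the middle phase, 7 late, 0 middle against early, 1 late against early and 7 in the time course, and no call of the unblocked fit was lost. The signs that turned were those of Plk1 late against early (−0.003847 with the higher floor, −0.0426 in experiment A alone, −0.22 with early as days 1 and 2, −0.15 with the noise covariate, −0.22 and −0.0282 on leaving out day 3 in experiment A or day 2 in experiment B), and of Aurka (0.0787) and Top2a (0.11) on design b in the same comparison on leaving out day 1 of experiment A. None of these passed a test before or after. Over all probe sets the early count of 271 became 469 with the block, 451 with the noise covariate, 173 in experiment A alone, 172 with early as days 1 and 2 and 175 with arcsinh values. The middle count of 633 became 959 with the block, and the late count of 844 became 555 in experiment A alone. Late against early, 76 became 184 with the block, 166 and 141 with the noise and Gapdh covariates, 118 with early as days 1 and 2, 40 without the filter and 31 in experiment A alone. The time course count of 754 became 1242 with the block. The experiment B against A count of 748 ran from 0 with either covariate, where 3 residual degrees of freedom become 2, over 477 with the higher floor to 1654 on the arcsinh scale. The cause was not tested, except that experiment A alone has fewer cultures and 1 on day 0. For the other mitosis genes the early count of 3 became 0 without the filter and with early as days 1 and 2, 1 with the lower floor and with arcsinh values, 5 with the Gapdh covariate and with plain eBayes, and 6 with the higher floor and with the noise covariate, and the late count of 14 became 9 with late as days 9 to 14. For the replication genes the early count of 0 became 2, the middle count of 2 became 4 and the late count of 4 became 7 with the higher floor, and the middle and late counts became 0 and 2 with the lower floor. The middle count was also 0 with arcsinh values, 1 with 8 arrays above the floor and 4 with the noise covariate, and the early count 1 with the noise covariate and in experiment A alone. Signal over background limits Bub1, Aurkb and Top2a, whose later values lay mostly under the floor.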
